A study of Mus musculus with 8 samples.

Results

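The cell cycle genes examined here are a named set of 41 mouse genes that drive, brake or mark cell division, followed in macrophages given lipopolysaccharide (LPS) with or without interleukin-10 (IL-10). They were taken by gene symbol from a list, and 39 of the 41 were in the deposited table of 11415 genes. No cutoff on measured values was used to choose the 41, but the list was chosen with earlier results of these data known. Rrm2 and Bub1 were not analysed here. By role, the 39 are 8 cyclins and cyclin-dependent kinases (CDKs) of G1, 3 CDK inhibitors, 5 genes of the pocket proteins, E2F factors and Myc, 12 genes of replication licensing and DNA synthesis, and 11 genes of mitosis. All 39 passed the filter on low values in both measures, mRNA and pre-mRNA. In either LPS library the smallest mRNA count of any gene in the table was 11 reads, against 0 to 2 in the libraries of the other groups. Presence in the table may thus depend on reads with LPS, and a gene that LPS silenced could not be seen in these data.

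The macrophages were grown from mouse bone marrow precursors for 5 days in medium conditioned with M-CSF, a growth factor that keeps macrophages alive and dividing. Every group, untreated cells included, came from IL10-/-RAG2-/- mice of strain 129S6/SvEvTac, which cannot make their own IL-10 and lack mature B and T lymphocytes. There were 4 groups of 2 libraries, 8 samples in all, prepared as ribosome-depleted directional RNA libraries. The first group received LPS and IL-10, each at 1 ng/mL, together for 195 min (IL-10 throughout). The second received LPS for 195 min and IL-10 during the last 30 min (late IL-10, whose dose is not restated). The third received LPS at 1 ng/mL for 195 min (LPS alone), and the fourth was untreated. Per the labels, the replicates came from independent pools of macrophages, and the deposited values are group means from which both libraries' reads were recovered exactly.

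A cell enters the cycle when growth signals raise D-type cyclins, which with Cdk4 or Cdk6 phosphorylate the pocket proteins (Rb1 and its relatives) and free E2F factors to switch on replication genes. CDK inhibitors such as Cdkn1a (p21) brake this step, and mitotic genes follow later under the DREAM and B-Myb complexes, which act at promoter elements named CHR. Macrophages divide in response to M-CSF, and LPS is known to arrest that division in G1. As background, transcripts of these genes in a bulk sample depend on how many cells are cycling, and fewer expressing cells cannot be told apart here from less RNA per cell.

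The promoters of 4 members are printed because the results below turn on these genes. They are RefSeq sequences on build GRCm38.p6, from 250 bases before to 50 bases after the transcription start, 5′ to 3′ on the gene's strand. Capitals mark every match, on either strand, to a CHR (TTTGAA or TTTAAA), an E2F motif (TTCGCG or TTGGCG or TCCCGC) or a CCAAT box (CCAAT). Mki67 (chr7:135716330-135716629, minus strand) holds 2 CHR, 2 E2F and 3 CCAAT matches, Top2a (chr11:99024140-99024439, minus strand) 2, 2 and 6, E2f2 (chr4:136172024-136172323, plus strand) 0, 3 and 1, and Cdkn1a (chr17:29090729-29091028, plus strand) none of any. Cdkn1a has 2 windows in the table, of which the first is shown.
Mki67: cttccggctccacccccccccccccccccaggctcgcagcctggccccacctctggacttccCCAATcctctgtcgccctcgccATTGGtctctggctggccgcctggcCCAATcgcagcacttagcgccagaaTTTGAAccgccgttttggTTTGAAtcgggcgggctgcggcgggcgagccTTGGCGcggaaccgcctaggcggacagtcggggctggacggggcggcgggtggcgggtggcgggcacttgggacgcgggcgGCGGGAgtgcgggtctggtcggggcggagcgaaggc
Top2a: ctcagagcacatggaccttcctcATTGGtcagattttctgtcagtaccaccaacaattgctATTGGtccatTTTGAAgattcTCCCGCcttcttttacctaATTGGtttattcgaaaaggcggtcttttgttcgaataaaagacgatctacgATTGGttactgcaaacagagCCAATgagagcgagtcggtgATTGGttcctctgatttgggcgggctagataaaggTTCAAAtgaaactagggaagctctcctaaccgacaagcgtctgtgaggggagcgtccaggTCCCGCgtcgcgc
E2f2: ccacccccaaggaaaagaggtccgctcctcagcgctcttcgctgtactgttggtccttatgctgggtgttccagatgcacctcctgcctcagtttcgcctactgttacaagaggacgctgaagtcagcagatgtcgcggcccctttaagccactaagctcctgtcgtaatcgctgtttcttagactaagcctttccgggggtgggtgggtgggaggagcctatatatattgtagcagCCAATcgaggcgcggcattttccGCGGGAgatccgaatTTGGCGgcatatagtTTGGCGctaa
Cdkn1a: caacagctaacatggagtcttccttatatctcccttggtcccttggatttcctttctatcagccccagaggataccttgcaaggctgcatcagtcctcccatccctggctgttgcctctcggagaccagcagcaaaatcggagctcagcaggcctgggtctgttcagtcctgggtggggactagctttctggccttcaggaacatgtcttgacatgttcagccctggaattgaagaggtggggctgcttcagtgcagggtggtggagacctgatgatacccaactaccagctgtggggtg

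A promoter window was available for 30 of the 39 members. An E2F motif was in 21 of the 30 (70%), against 26.68% of all 27025 windows of this length. A CCAAT box was in 19 (63.33%), against 37.92%, and a CHR in 13 (43.33%), against 27.82%. An E-box (CACGTG, the element Myc binds) was in 3 (10%), against 7.241%. A match describes the letters of the window and is not evidence of binding. Both the Mki67 and the Top2a window hold CHR, E2F and CCAAT matches, and with LPS Mki67 mRNA rose while Top2a mRNA did not pass the test.

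Values below are normalized reads, that is reads divided by the library's size factor, given as library A and then library B of each group. Library A is the one with the larger size factor. The letters carry no pairing, so library A of one group need not come from the same pool as library A of another, and an mRNA library A need not be the pre-mRNA library A. Reads over the table ran from 21412968 to 53172133 per library for mRNA and from 8661271 to 31508394 for pre-mRNA. Changes are on the log2(normalized reads + 1) scale with limma's standard error, n = 2 libraries per group, and "rose" and "fell" mean a Benjamini-Hochberg adjusted p under 0.05 over all genes tested. The p-values measure the spread between these libraries, with no term for the pool. The macrophage label fitted its markers, since all 10 listed macrophage genes (such as Adgre1, Csf1r and Cd68) were in the table, at 527554 to 880088 summed normalized mRNA reads per library. Among other cell types, 7 of 10 neutrophil genes summed to 1893 to 3244. The 4 of 5 dendritic genes in the table summed to 371 to 705 in the LPS-treated libraries, against 169 and 151 in untreated cells. Flt3, Ly6g and Elane were not in the table. Of the stromal genes 1 of 4, Pdgfra, had 0 to 33.1, and of the erythroid and progenitor genes 1 of 5, Kit, had 1.98 to 44.5. No listed B cell gene was in the table, nor were Cd3e and Cd3d, while the other 2 T cell genes, Lck and Cd28, summed to 395 to 938 in the LPS-treated libraries, against 3324 and 5494 in untreated cells. A gene silent with LPS could not be seen here, so absence from the table says nothing on the untreated cells. The part of other cell types in the results was not tested.

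By role, the median difference between the libraries of a treated group was largest in mitotic genes. Single members of other roles could stand as far apart. Ccnd2 mRNA, for example, had 5206 and 18699 normalized reads with LPS alone, and 20439 and 5533 after late IL-10. With IL-10 throughout, 10 of the 11 mitotic members had more mRNA in library B, by a median of 1.54 on the log2 scale, and with late IL-10 10 of 11 did, by 1.48. With LPS alone all 11 had more in library A, by a median of 1.45, and in untreated cells 7 of 11 had more in library B, by 0.35. The 10 mitotic members other than Mki67 summed to 1245 and 3988 normalized reads with IL-10 throughout, 1212 and 3285 after late IL-10, 3438 and 1199 with LPS alone, and 1715 and 2085 in untreated cells. The 12 licensing and DNA synthesis members leaned the same way in mRNA. Their median differences, library A minus library B, were -0.35 with IL-10 throughout, -0.44 with late IL-10 and 0.31 with LPS alone. E2f1, E2f2, Cdt1, Gmnn, Rrm1 and Cdk4 mRNA was higher in the library high in mitotic mRNA in all 3 LPS-treated groups. Over all genes the median difference in mRNA between a group's libraries was between -0.02 and 0.02. Pre-mRNA showed the same kind of split, with 10 of 11 mitotic members higher in library B with IL-10 throughout, 9 of 11 with late IL-10, 11 of 11 with LPS alone and 8 of 11 in untreated cells. The library of a treated group that was low in mitotic mRNA was the high one in Ccnd2, Cdk6, Rbl1, Ccne2, Cdkn1a and Cdkn1b mRNA in all 3 LPS-treated groups. Results for these genes are given with both libraries, and the part of this split in them was not tested.

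**Figure D1:**
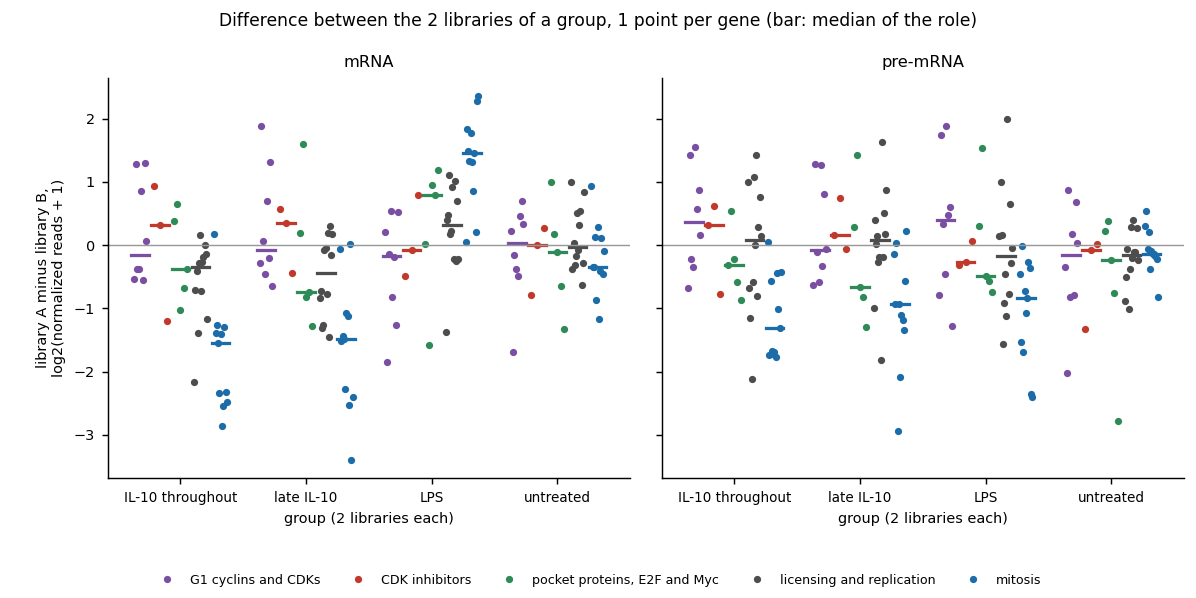
Difference between libraries A and B of each group in log2(normalized reads + 1), for mRNA (left) and pre-mRNA (right); each point is 1 cell cycle gene, colored by role, and the bar is the median of that role. The mitotic members (blue, at the right of each group) sit far from 0 in all 3 LPS-treated groups of the mRNA panel, at medians of -1.54 with IL-10 throughout, -1.48 with late IL-10 and 1.45 with LPS alone, and near 0 in untreated cells (-0.35).

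The first question was what LPS did to these genes. In mRNA, LPS raised 5 members, Ccnd2, Cdk6, Cdkn1a, Pcna and Mki67, and lowered 7, Cdk2, Cdk4, E2f1, E2f2, Cdt1, Gmnn and Rrm1. In pre-mRNA, the unspliced transcript that lies nearer to transcription, 7 rose and 12 fell. The members' shares were 12.8% and 17.9% in mRNA, where 19.2% of all genes rose and 16.5% fell, so the members were below the background in rises and close to it in falls. In pre-mRNA they were 17.9% and 30.8%, where 22.3% of all genes rose and 21.7% fell, so a larger share of the members fell than of all genes. The median change was -0.48 over the members and 0.01 over all genes tested in mRNA, and -0.68 over the members and 0.00 over all genes tested in pre-mRNA. With libraries scaled to their total reads, which moved the median of all genes by -0.75 in mRNA and -0.92 in pre-mRNA, 4 members rose and 17 fell in each measure. Leaving out untreated library A or LPS library B left 6 calls in mRNA, and leaving out untreated library B or LPS library A gave 12 and 11 calls in pre-mRNA, of which 11 and 11 were among the 19. Of the calls, 6 of 12 in mRNA and 11 of 19 in pre-mRNA passed in all 8 fits that left out 1 library each.

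**Figure D2:**
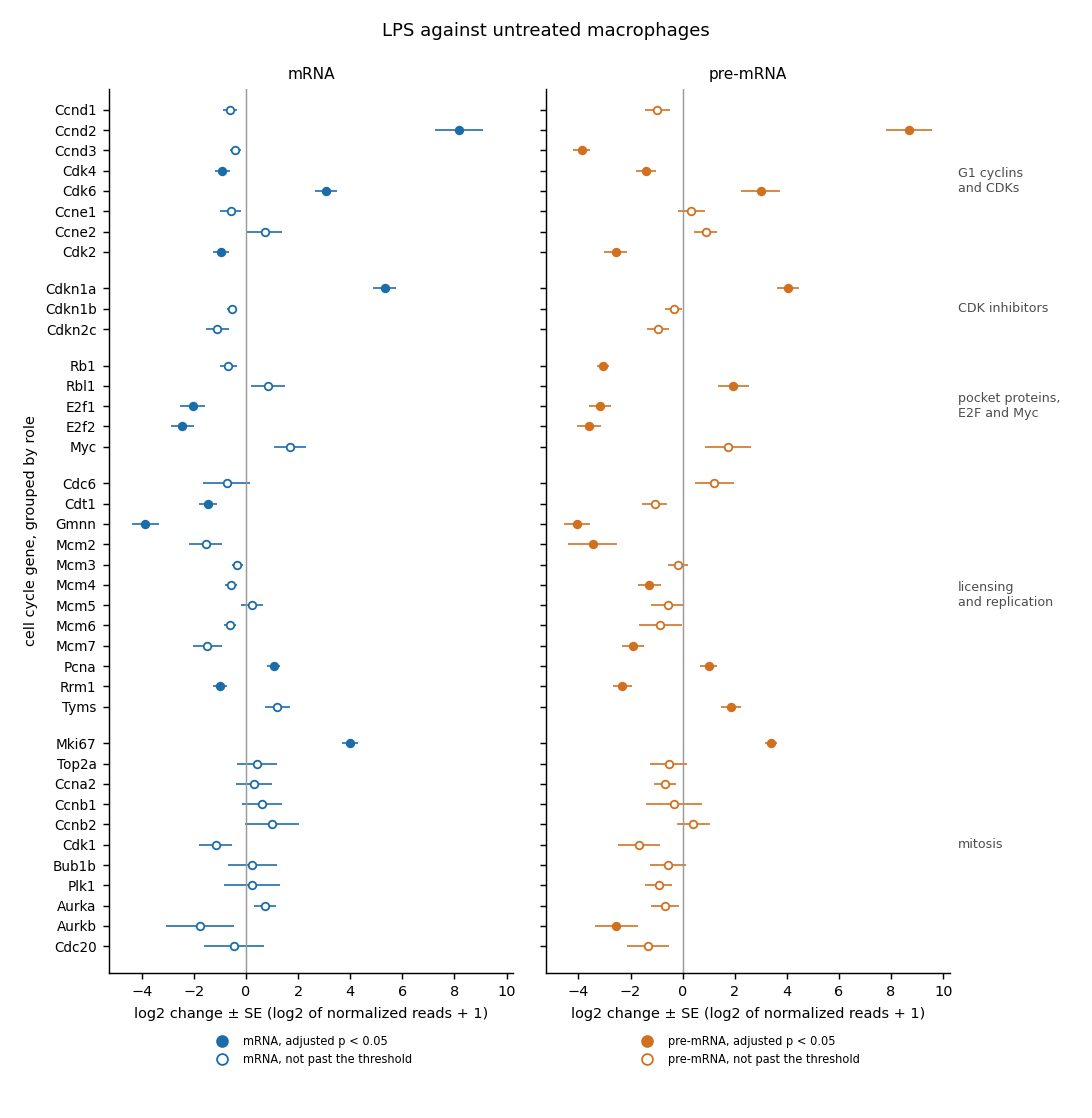
Change of each of the 39 members with LPS against untreated cells, as log2 change ± SE of normalized reads + 1, for mRNA (left) and pre-mRNA (right), with genes grouped by role and filled points at adjusted p < 0.05. Ccnd2, Cdk6, Cdkn1a and Mki67 lie far to the right in both panels and Gmnn, E2f1 and E2f2 to the left, while the mitotic members other than Mki67 have open points in the mRNA panel.

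Among the G1 cyclins and CDKs, Ccnd2 and Cdk6 rose, while no other of these 8 genes rose in mRNA. Ccnd2, a D-type cyclin that growth signals induce, had 3311 and 1356 normalized mRNA reads with IL-10 throughout, 20439 and 5533 after late IL-10, 5206 and 18699 with LPS alone, and 17.9 and 59.6 in untreated cells. Every treated library lay above both untreated ones, and the rise with LPS was 8.19 ± 0.92, adjusted p = 0.001. Its pre-mRNA had 164 and 60.4 normalized reads with IL-10 throughout, 3607 and 1478 after late IL-10, 4746 and 1424 with LPS alone, and 2.13 and 11.7 in untreated cells, a rise with LPS of 8.69 ± 0.87, adjusted p = 0.00031, where the untreated libraries hold 4 and 8 reads. Cdk6, a kinase that D-type cyclins activate, had 10939 and 6074 normalized mRNA reads with IL-10 throughout, 11608 and 7156 after late IL-10, 6553 and 11594 with LPS alone, and 873 and 1228 in untreated cells. The LPS libraries lay above the untreated ones, with a rise of 3.07 ± 0.42, adjusted p = 0.0022. Cdk6 pre-mRNA had 10150.0 and 3479.8 normalized reads with IL-10 throughout, 23773 and 9869 after late IL-10, 26767 and 7245 with LPS alone, and 1848 and 1644 in untreated cells, again with both LPS libraries above the untreated ones, and rose by 3.0 ± 0.74, adjusted p = 0.014. The pre-mRNA call on Cdk6 ended without LPS library A or either untreated library (adjusted p = 0.061 to 0.072), while that on its mRNA and both calls on Ccnd2 passed in every fit that left out 1 library.

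The other D-type cyclins and Cdk4 moved the other way or did not pass. Ccnd1, the cyclin best known from M-CSF signalling, had 234 and 340.0 normalized mRNA reads with IL-10 throughout, 306 and 375 after late IL-10, 352 and 307 with LPS alone, and 548 and 470.4 in untreated cells. Both LPS libraries lay below both untreated ones, yet the change of -0.63 ± 0.27, adjusted p = 0.11 did not pass. Ccnd1 pre-mRNA had 33.2 and 53.9 normalized reads with IL-10 throughout, 26.5 and 41.5 after late IL-10, 27.03 and 47.2 with LPS alone, and 62.9 and 80.1 in untreated cells, and did not pass either (-0.97 ± 0.48, adjusted p = 0.14). Ccnd3, the third D-type cyclin, had 967 and 1259 normalized mRNA reads with IL-10 throughout, 903 and 861 after late IL-10, 739 and 815 with LPS alone, and 980.3 and 1087 in untreated cells, which with LPS did not pass (-0.41 ± 0.20, adjusted p = 0.16). Its pre-mRNA had 138 and 161 normalized reads with IL-10 throughout, 251 and 272 after late IL-10, 121 and 95.8 with LPS alone, and 2147 and 1179 in untreated cells. The treated libraries lay far below the untreated ones, and the pre-mRNA fell with LPS (-3.87 ± 0.32, adjusted p = 0.00015).

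Cdk4, the usual partner of the D-type cyclins, had 1072 and 1397 normalized mRNA reads with IL-10 throughout, 846 and 1157 after late IL-10, 1109 and 759 with LPS alone, and 1509.5 and 1969 in untreated cells. It fell with LPS in mRNA (-0.91 ± 0.29, adjusted p = 0.047). Cdk4 pre-mRNA had 188 and 238 normalized reads with IL-10 throughout, 79.5 and 120.1 after late IL-10, 75.2 and 104 with LPS alone, and 178 and 315 in untreated cells, and fell as well (-1.41 ± 0.39, adjusted p = 0.021). The mRNA call on Cdk4 ended without either IL-10 throughout library, either late IL-10 library, LPS library B or either untreated library (adjusted p = 0.052 to 0.24), and the pre-mRNA call ended without LPS library A or untreated library B (adjusted p = 0.099 to 0.13). Cdk2, the partner of cyclin E at the start of S phase, had 659 and 628 normalized mRNA reads with IL-10 throughout, 283 and 442 after late IL-10, 478 and 333 with LPS alone, and 865 and 688 in untreated cells. Its mRNA fell (-0.95 ± 0.30, adjusted p = 0.047). Cdk2 mRNA lost that call without either IL-10 throughout library, either LPS library or either untreated library (adjusted p = 0.051 to 0.24). Its pre-mRNA had 142 and 126 normalized reads with IL-10 throughout, 38.9 and 40.4 after late IL-10, 21.2 and 52.6 with LPS alone, and 206 and 201 in untreated cells, and fell by more (-2.57 ± 0.44, adjusted p = 0.0031), with no overlap between the groups and a pass in all 8 fits without 1 library. Whether the 2 falls of Cdk2 differ did not pass in the test of that difference (-1.62 ± 0.54, adjusted p = 0.24). The 2 E-type cyclins that activate Cdk2 did not pass in either measure. Ccne1 mRNA had 26.8 and 30.8 normalized reads with LPS alone, against 51.6 and 37.2 in untreated cells (-0.59 ± 0.41, adjusted p = 0.3), and Ccne2 mRNA had 127 and 305 normalized reads with LPS alone, against 151 and 93.1 in untreated cells (0.73 ± 0.67, adjusted p = 0.44).

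Of the 3 CDK inhibitors, Cdkn1a rose and the other two did not pass with LPS. Cdkn1a, which encodes p21 and halts the cycle when it binds cyclin-CDK pairs, had 48174 and 25246 normalized mRNA reads with IL-10 throughout, 184381 and 123508 after late IL-10, 141183 and 198579 with LPS alone, and 3187 and 5517 in untreated cells. All treated libraries were far above the untreated ones, and the rise with LPS was 5.32 ± 0.43, adjusted p = 0.00029. Its pre-mRNA had 3636 and 2905 normalized reads with IL-10 throughout, 7174 and 6398 after late IL-10, 15527 and 19398 with LPS alone, and 669 and 1682 in untreated cells, and rose too (4.03 ± 0.42, adjusted p = 0.00035). Both calls on Cdkn1a passed in every fit that left out 1 library. Cdkn1b, which encodes p27, the inhibitor of resting cells, had 1794 and 1895 normalized reads with LPS alone, against 2694 and 2677 in untreated cells in mRNA (-0.54 ± 0.20, adjusted p = 0.075). Cdkn2c, which encodes p18, an inhibitor of Cdk4 and Cdk6, had 420.4 and 242 normalized reads with LPS alone, against 753 and 621 in untreated cells in mRNA (-1.10 ± 0.45, adjusted p = 0.1).

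**Figure D3:**
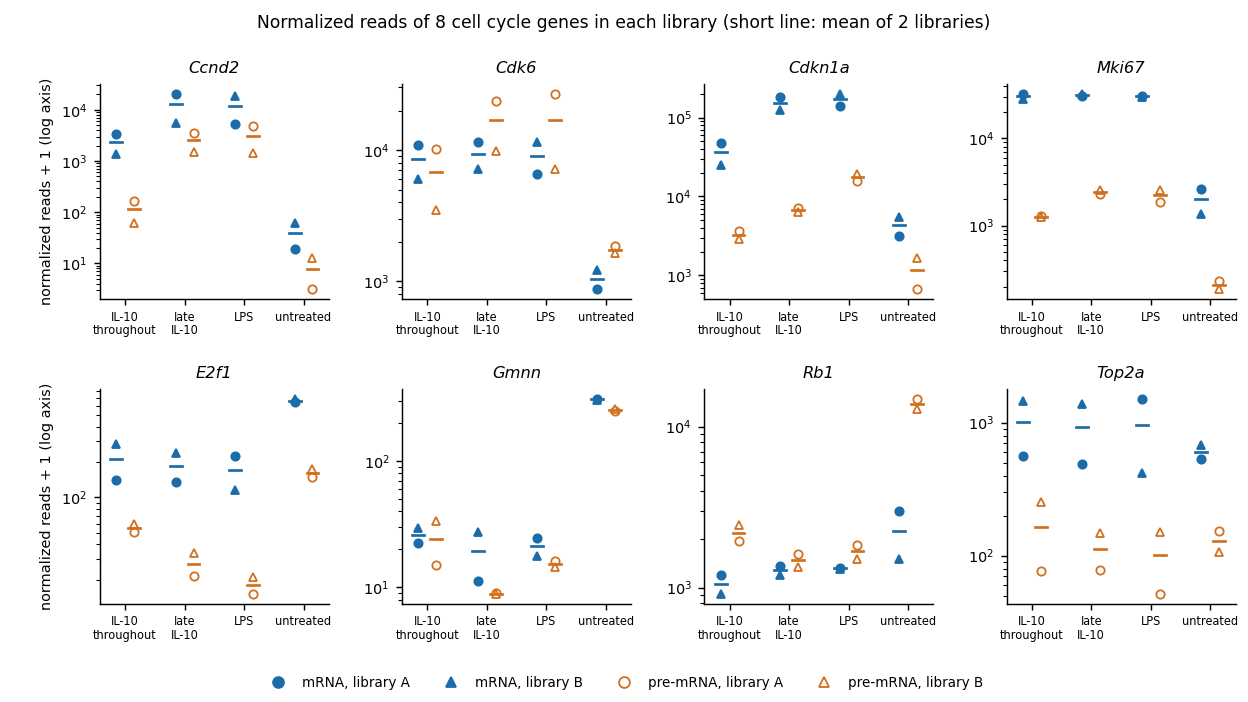
Normalized reads + 1 on a log axis for 8 members in each library, with mRNA as filled blue and pre-mRNA as open orange symbols (circle, library A; triangle, library B), a short line at the mean of the 2 libraries, and groups from left to right IL-10 throughout, late IL-10, LPS and untreated. Ccnd2, Cdk6, Cdkn1a and Mki67 are higher in every treated library than in the untreated ones, E2f1 and Gmnn are lower, Rb1 pre-mRNA is lower while its mRNA spans a narrower range, and Top2a differs more between the libraries of a treated group than between the groups.

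The activating E2F factors E2f1 and E2f2 fell with LPS in both measures, while E2f3, the other activating E2F and not a member, rose, as given with the lists below. E2f1, which switches on S phase genes when pocket proteins let it go, had 140.3 and 286 normalized mRNA reads with IL-10 throughout, 134 and 237 after late IL-10, 224 and 115 with LPS alone, and 642 and 690.1 in untreated cells. Its mRNA fell (-2.05 ± 0.48, adjusted p = 0.018), and the LPS and untreated libraries did not overlap, though the call ended without LPS library B or either untreated library (adjusted p = 0.074 to 0.097). E2f1 pre-mRNA had 50.1 and 58.2 normalized reads with IL-10 throughout, 20.3 and 32.5 after late IL-10, 14.1 and 20.2 with LPS alone, and 149 and 175 in untreated cells, and fell by 3.18 ± 0.42 (adjusted p = 0.00092). E2f2, a close relative, had 205 and 328 normalized mRNA reads with IL-10 throughout, 211 and 355 after late IL-10, 341 and 198 with LPS alone, and 1133 and 1769 in untreated cells. It fell in mRNA (-2.44 ± 0.43, adjusted p = 0.0059). E2f2 pre-mRNA had 59.7 and 89.5 normalized reads with IL-10 throughout, 37.1 and 66.2 after late IL-10, 38.8 and 58.03 with LPS alone, and 449 and 762 in untreated cells, and fell (-3.60 ± 0.45, adjusted p = 0.00075). Both E2f2 calls passed in all 8 fits without 1 library. In the printed E2f2 promoter, the 3 E2F matches lie close together at the 3′ end of the window.

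The pocket proteins went different ways in pre-mRNA. Rb1, the retinoblastoma protein that holds E2F factors in check, had 1193 and 913 normalized mRNA reads with IL-10 throughout, 1371 and 1196 after late IL-10, 1326 and 1314 with LPS alone, and 2988 and 1498 in untreated cells, where the untreated libraries differed between themselves and the change did not pass (-0.68 ± 0.33, adjusted p = 0.15). Its pre-mRNA had 1954 and 2437 normalized reads with IL-10 throughout, 1628 and 1342 after late IL-10, 1851 and 1503 with LPS alone, and 14889.8 and 12826 in untreated cells, and fell (-3.05 ± 0.24, adjusted p = 0.00012), with all treated libraries far below the untreated ones. In the annotation (GENCODE vM21 on GRCm38) Lpar6, a receptor gene, lies wholly inside Rb1 on the opposite strand (chr14:73237895-73243294, within chr14:73183673-73325822, minus strand), and Rcbtb2 overlaps its end. Lpar6 mRNA had 470 and 504 normalized reads with LPS alone, against 11944 and 8211 in untreated cells, a log2 change of -4.34 ± 0.31 (adjusted p = 0.00019). Rcbtb2 pre-mRNA had 250.3 and 445 with LPS alone, against 13394 and 11258 in untreated cells (-5.20 ± 0.41, adjusted p = 0.00012). The kit marks strand, but whether the counting used it is not given in the sources used here, and the part of these genes' reads in the Rb1 pre-mRNA value was not tested. Rbl1, which encodes the pocket protein p107, had 906 and 621 normalized reads with IL-10 throughout, 3808 and 1425 after late IL-10, 3921 and 1358 with LPS alone, and 685 and 523 in untreated cells in pre-mRNA and rose with LPS (1.95 ± 0.59, adjusted p = 0.03). Rbl1 pre-mRNA lost that call without LPS library A or either untreated library (adjusted p = 0.082 to 0.15) and under scaling to total reads (adjusted p = 0.06). Rbl1 mRNA had 610.0 and 1827 normalized reads with LPS alone, against 631 and 556 in untreated cells and did not pass (0.83 ± 0.65, adjusted p = 0.36).

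Myc, a growth factor-induced transcription factor that drives entry into the cycle, had 748 and 967 normalized mRNA reads with IL-10 throughout, 1199 and 2895 after late IL-10, 1362 and 595 with LPS alone, and 177 and 442 in untreated cells. All treated libraries lay above both untreated ones, but the change with LPS did not pass (1.68 ± 0.62, adjusted p = 0.072). With late IL-10 it passed against untreated cells (2.73 ± 0.62, adjusted p = 0.015). Myc mRNA lost that call without late IL-10 library B or untreated library A (adjusted p = 0.056 to 0.085). Against LPS alone the late IL-10 change of Myc did not pass (1.05 ± 0.62, adjusted p = 1), so the late IL-10 and LPS values are not shown to differ.

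Among the 12 genes of licensing and DNA synthesis, 3 fell and 1 rose in mRNA with LPS, and 5 fell and 2 rose in pre-mRNA. Over all genes, 16.5% fell and 19.2% rose in mRNA, and 21.7% fell and 22.3% rose in pre-mRNA. Whether these 12 differ from all genes was not tested. Gmnn, which encodes geminin, the protein that blocks relicensing by binding Cdt1, had 21.4 and 28.7 normalized mRNA reads with IL-10 throughout, 10.1 and 26.5 after late IL-10, 23.7 and 16.8 with LPS alone, and 309.6 and 304 in untreated cells. The treated libraries were all far below the untreated ones, with a change of -3.88 ± 0.52, adjusted p = 0.002. Gmnn pre-mRNA had 14.01 and 32.4 normalized reads with IL-10 throughout, 7.95 and 7.85 after late IL-10, 15.3 and 13.5 with LPS alone, and 248 and 258 in untreated cells, and fell as well (-4.05 ± 0.50, adjusted p = 0.00072). Both Gmnn calls passed in each fit without 1 library. The pre-mRNA values of Gmnn rest on 13 and 10 reads with LPS alone and on 9 and 7 after late IL-10.

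Cdt1, the licensing factor that geminin binds, had 768 and 1260.3 normalized mRNA reads with IL-10 throughout, 646 and 1063 after late IL-10, 1048 and 797 with LPS alone, and 2219 and 2871 in untreated cells. It fell in mRNA with LPS (-1.46 ± 0.35, adjusted p = 0.018), a call that ended without LPS library B or either untreated library (adjusted p = 0.055 to 0.1). Cdt1 pre-mRNA had 41.3 and 66.9 normalized reads with IL-10 throughout, 63.6 and 48.3 after late IL-10, 101 and 49.9 with LPS alone, and 127 and 181 in untreated cells, and with LPS did not pass (-1.08 ± 0.46, adjusted p = 0.093). Cdc6, which loads the MCM helicase together with Cdt1, was low, with 0.894 and 7.44 normalized mRNA reads with IL-10 throughout, 10.1 and 18.9 after late IL-10, 11.3 and 30.8 with LPS alone, and 45.6 and 22.3 in untreated cells. Those values overlap between LPS and untreated cells (-0.74 ± 0.91, adjusted p = 0.56), and Cdc6 mRNA with IL-10 throughout did not pass against LPS alone. With IL-10 throughout, where Cdc6 rests on 1 and 7 reads, it fell against untreated cells (-3.05 ± 0.91, adjusted p = 0.048). That call held in 1 of 8 fits without 1 library and was lost at a pseudocount of 0.5 (adjusted p = 0.05).

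The MCM genes encode the 6 subunits of the replicative helicase (Mcm2 to Mcm7), and in mRNA with LPS none passed. Their mRNA changes ran from -1.55 ± 0.63 for Mcm2 to 0.23 ± 0.43 for Mcm5. In pre-mRNA 3 of the 6 fell with LPS, where 21.7% of all genes fell. Mcm2 pre-mRNA had 1.47 and 9.71 normalized reads with IL-10 throughout, 8.83 and 7.85 after late IL-10, 1.18 and 5.4 with LPS alone, and 27.7 and 56.8 in untreated cells, and fell (-3.45 ± 0.93, adjusted p = 0.02), with 1 and 4 reads behind the LPS values. Mcm2 pre-mRNA lost that call without LPS library A or either untreated library (adjusted p = 0.056 to 0.13). Mcm7 pre-mRNA had 43.5 and 76.6 normalized reads with IL-10 throughout, 35.3 and 40.4 after late IL-10, 32.9 and 56.7 with LPS alone, and 158 and 170.5 in untreated cells, and fell (-1.90 ± 0.43, adjusted p = 0.0095), ending without LPS library A or untreated library B (adjusted p = 0.052 to 0.056). Ap4m1, on the opposite strand, overlaps Mcm7, and its pre-mRNA had 57.6 and 75.6 normalized reads with LPS alone, against 202 and 178 in untreated cells (-1.51 ± 0.39, adjusted p = 0.017); its part in the Mcm7 value was not tested. Mcm4 pre-mRNA had 115 and 53.9 normalized reads with IL-10 throughout, 60.04 and 68.5 after late IL-10, 29.4 and 40.5 with LPS alone, and 94.3 and 77.2 in untreated cells, a fall at the edge of the threshold (-1.28 ± 0.44, adjusted p = 0.049) that ended without either late IL-10 library, either LPS library or either untreated library (adjusted p = 0.059 to 0.18) and with limma-voom (adjusted p = 0.069). Mcm6 had 233 and 279 normalized mRNA reads with IL-10 throughout, 460.4 and 402 after late IL-10, 391 and 455 with LPS alone, and 721 and 577 in untreated cells. It did not pass with LPS (-0.61 ± 0.23, adjusted p = 0.081), and its mRNA with IL-10 throughout did not pass against LPS alone. Against untreated cells its mRNA fell with IL-10 throughout (-1.33 ± 0.23, adjusted p = 0.0078). Mcm6 mRNA lost that call without IL-10 throughout library A (adjusted p = 0.062).

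Genes of the fork and of nucleotide supply differed in direction. Pcna, the sliding clamp that holds the polymerase on DNA, had 1211 and 1211 normalized mRNA reads with IL-10 throughout, 1751 and 1424 after late IL-10, 1447 and 1715 with LPS alone, and 609 and 941 in untreated cells, and rose with LPS (1.06 ± 0.26, adjusted p = 0.019). All treated libraries were above the untreated ones, and the call ended without LPS library B or untreated library A (adjusted p = 0.075 to 0.11) and under scaling to total reads (0.31, adjusted p = 0.33). Pcna pre-mRNA had 230.1 and 189 normalized reads with IL-10 throughout, 411 and 288 after late IL-10, 553 and 352 with LPS alone, and 213 and 230.2 in untreated cells, and rose as well (0.99 ± 0.31, adjusted p = 0.033), and that call ended without IL-10 throughout library A, LPS library A or either untreated library (adjusted p = 0.051 to 0.18) and under scaling to total reads (0.08, adjusted p = 0.84). Rrm1, the large subunit of ribonucleotide reductase, had 458 and 503 normalized mRNA reads with IL-10 throughout, 382 and 425 after late IL-10, 435 and 269 with LPS alone, and 618 and 752 in untreated cells. It fell with LPS (-0.99 ± 0.28, adjusted p = 0.032). Rrm1 mRNA lost that call without either IL-10 throughout library, LPS library B or either untreated library (adjusted p = 0.052 to 0.18). Rrm1 pre-mRNA, with 109.9 and 64.7 normalized reads with IL-10 throughout, 57.4 and 50.5 after late IL-10, 37.6 and 45.9 with LPS alone, and 232 and 192 in untreated cells, fell with LPS in all 8 fits without 1 library (-2.32 ± 0.37, adjusted p = 0.0022). Tyms, thymidylate synthase, had 40.6 and 36.7 normalized reads with IL-10 throughout, 169.5 and 92.02 after late IL-10, 155 and 161 with LPS alone, and 39.4 and 46.6 in untreated cells in pre-mRNA. It rose with LPS (1.86 ± 0.38, adjusted p = 0.0065), which was lost under scaling to total reads (0.95, adjusted p = 0.13), and its mRNA did not pass (1.20 ± 0.49, adjusted p = 0.094).

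Among the 11 mitotic members, Mki67 alone rose in mRNA with LPS, and no other passed in that measure. Over all genes, 19.2% rose and 16.5% fell in mRNA. Mki67, the antigen Ki-67 that coats mitotic chromosomes and is used as a stain for cycling cells, had 32016 and 28376 normalized mRNA reads with IL-10 throughout, 30656 and 32121 after late IL-10, 30682 and 29668 with LPS alone, and 2624 and 1372 in untreated cells. Its 6 treated libraries lay between 28376 and 32121, against 2624 and 1372 in untreated cells, and the 2 libraries of each treated group lay close together. The rise was 3.99 ± 0.31, adjusted p = 0.00023, or 15.9-fold. Mki67 pre-mRNA had 1288 and 1248 normalized reads with IL-10 throughout, 2293 and 2538 after late IL-10, 1875 and 2567 with LPS alone, and 231 and 187 in untreated cells, and rose with LPS (3.40 ± 0.23, adjusted p = 6.4e-05). Both Mki67 calls passed in every fit that left out 1 library, and with libraries scaled to total reads the rise in mRNA was 3.24 (adjusted p = 0.00056).

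Top2a, the topoisomerase that untangles sister chromatids, had 559 and 1463 normalized mRNA reads with IL-10 throughout, 485 and 1382 after late IL-10, 1508 and 420.2 with LPS alone, and 529.9 and 675 in untreated cells. Its LPS and untreated values overlap, and the change did not pass (0.41 ± 0.76, adjusted p = 0.71). Top2a pre-mRNA had 75.2 and 252 normalized reads with IL-10 throughout, 76.8 and 147 after late IL-10, 50.5 and 148 with LPS alone, and 152 and 105 in untreated cells, and did not pass (-0.54 ± 0.71, adjusted p = 0.56). Aurkb, a kinase that corrects spindle attachments, had 42.9 and 218 normalized mRNA reads with IL-10 throughout, 12.9 and 146 after late IL-10, 133 and 26.6 with LPS alone, and 177 and 243 in untreated cells, a spread between libraries within which the LPS change did not pass (-1.78 ± 1.30, adjusted p = 0.32). Its pre-mRNA had 15.5 and 39.9 normalized reads with IL-10 throughout, 14.1 and 21.3 after late IL-10, 2.35 and 16.2 with LPS alone, and 39.95 and 46.6 in untreated cells, and fell (-2.54 ± 0.84, adjusted p = 0.042). Aurkb pre-mRNA lost that call without IL-10 throughout library B, either late IL-10 library, LPS library A or either untreated library (adjusted p = 0.051 to 0.2). Its pre-mRNA values with LPS alone rest on 2 and 12 reads. The other 8 mitotic members are the cyclins Ccna2, Ccnb1 and Ccnb2, the mitotic kinases Cdk1, Plk1 and Aurka, the checkpoint kinase Bub1b and Cdc20, an activator of the anaphase-promoting complex. None of these 8 passed in either measure with LPS, with mRNA changes between -1.17 ± 0.64 for Cdk1 and 1.0 ± 1.05 for Ccnb2. Plk1 mRNA, for example, had 205 and 74.2 normalized reads with LPS alone, against 89.96 and 120.4 in untreated cells, with the LPS libraries on both sides of the untreated ones.

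Pre-mRNA and mRNA changes with LPS were set against each other in 1 fit of both measures, which takes them as unrelated measurements, yet both were read from 1 RNA sample. The difference passed for 2 of the 39 members, where 1.24% of the 11131 genes tested passed in either direction. For Ccnd3 the pre-mRNA change minus the mRNA change was -3.46 ± 0.39, adjusted p = 0.0013, and this held in all 16 fits that left out 1 library (largest adjusted p = 0.0092). For Rb1 the difference was -2.37 ± 0.41, adjusted p = 0.019, and it ended without either LPS mRNA library (adjusted p = 0.076 and 0.084) or either untreated pre-mRNA library (adjusted p = 0.083 and 0.054). The Rb1 difference carries the limit on overlapping genes given above. Bysl, which overlaps the end of Ccnd3 on the opposite strand, had 67.0 and 128 normalized pre-mRNA reads with LPS alone, against 82.6 and 94.7 in untreated cells (0.07 ± 0.38, adjusted p = 0.9).

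**Figure D4:**
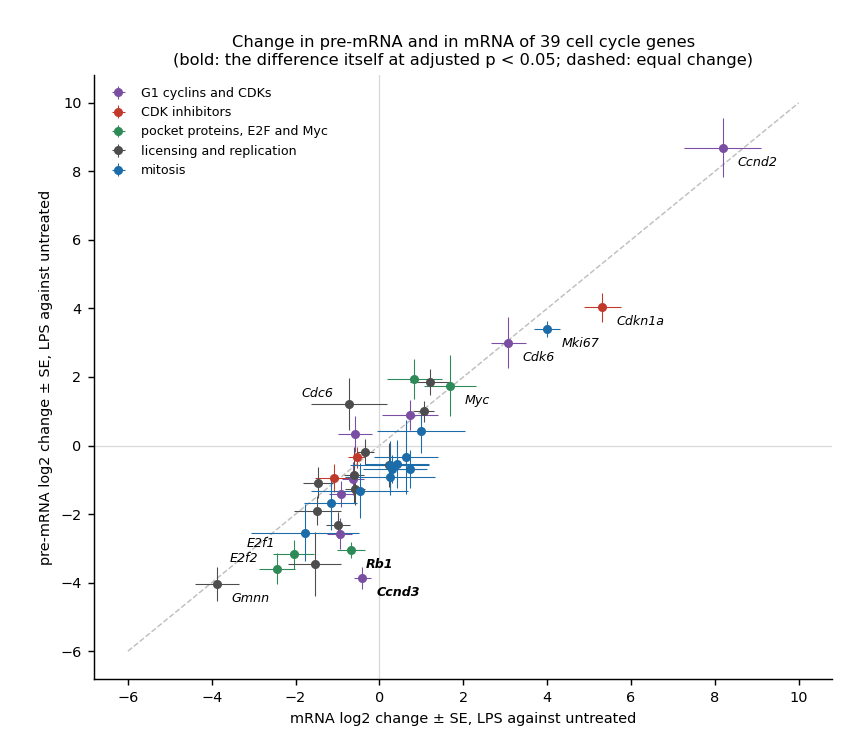
Log2 change ± SE with LPS against untreated cells in mRNA (horizontal) and pre-mRNA (vertical) for the 39 members, colored by role, with a dashed line where both change equally. The points run from Gmnn at the lower left to Ccnd2 at the upper right, and most lie below the dashed line. The difference itself passed only for Ccnd3 and Rb1 (bold), where pre-mRNA fell by more than mRNA. Cdc6 lies farthest above the line (1.95 ± 1.20), a difference that did not pass.

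The second question was what IL-10 did on top of LPS. Given throughout, IL-10 lowered the pre-mRNA of Ccnd2, Tyms and Cdkn1a and raised that of Cdk2, against LPS alone, and no member passed in mRNA. In pre-mRNA the members' shares were 2.56% and 7.69%, where 2.44% of all genes rose and 4.26% fell. In mRNA, where 1.19% of all genes rose and 1.05% fell in limma, 2 members were higher and 5 lower at an unadjusted p under 0.05, and limma-voom called 0. Ccnd2 pre-mRNA stood at 164 and 60.4 normalized reads with IL-10 throughout, against 4746 and 1424 with LPS alone, without overlap (-4.69 ± 0.87, adjusted p = 0.024). Cdkn1a pre-mRNA stood at 3636 and 2905 with IL-10 throughout, against 15527 and 19398 with LPS alone (-2.42 ± 0.42, adjusted p = 0.019). Against untreated cells Ccnd2 pre-mRNA rose with IL-10 throughout (4.0 ± 0.87, adjusted p = 0.012), a call that ended without IL-10 throughout library A or untreated library A (adjusted p = 0.079 to 0.089) and with limma-voom (adjusted p = 0.085). Cdkn1a pre-mRNA rose against untreated cells as well (1.61 ± 0.42, adjusted p = 0.024), which ended without either IL-10 throughout library or untreated library A (adjusted p = 0.067 to 0.14) and under scaling to total reads (adjusted p = 0.086). Tyms pre-mRNA stood at 40.6 and 36.7 with IL-10 throughout, against 155 and 161 with LPS alone (-2.0 ± 0.38, adjusted p = 0.026), close to its 39.4 and 46.6 in untreated cells. Cdk2 pre-mRNA stood at 142 and 126 with IL-10 throughout, against 21.2 and 52.6 with LPS alone (1.97 ± 0.44, adjusted p = 0.043).

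These calls rested on few libraries. Without LPS library A, or either library with IL-10 throughout, 0 of the 4 pre-mRNA calls passed. The Ccnd2 call ended without either IL-10 throughout library or LPS library A (adjusted p = 0.061 to 0.15), the Cdkn1a call without either IL-10 throughout library or LPS library A (adjusted p = 0.071 to 0.13) and the Tyms call without either IL-10 throughout library or either LPS library (adjusted p = 0.05 to 0.15). The Cdk2 call ended without either IL-10 throughout library, either late IL-10 library, LPS library A or either untreated library (adjusted p = 0.056 to 0.19) and under scaling to total reads (adjusted p = 0.058), as did Tyms (adjusted p = 0.1), so that 0 members rose and 2 fell there. In mRNA the same genes had values in the same direction that did not pass. Cdkn1a mRNA stood at 48174 and 25246 with IL-10 throughout, against 141183 and 198579 with LPS alone, without overlap (-2.26 ± 0.43, adjusted p = 0.051). Ccnd2 mRNA stood at 3311 and 1356 with IL-10 throughout, against 5206 and 18699 with LPS alone (-2.22 ± 0.92, adjusted p = 0.33). Mki67 mRNA had 32016 and 28376 with IL-10 throughout, against 30682 and 29668 with LPS alone (-0.00 ± 0.31, adjusted p = 1), and its pre-mRNA had 1288 and 1248 with IL-10 throughout, against 1875 and 2567 with LPS alone (-0.79 ± 0.23, adjusted p = 0.086).

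**Figure D5:**
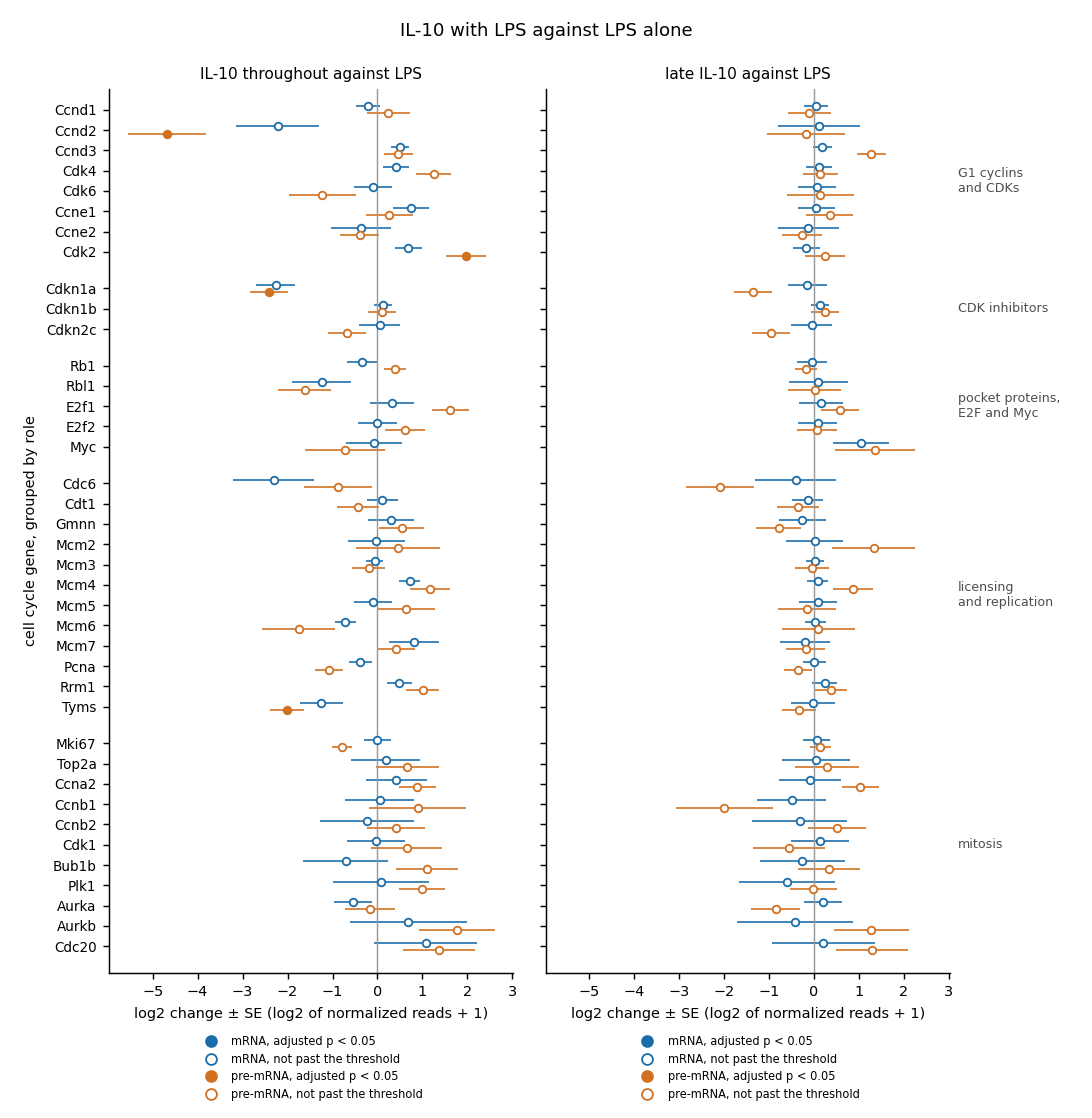
Log2 change ± SE of the 39 members against LPS alone for IL-10 throughout (left) and late IL-10 (right), mRNA in blue and pre-mRNA in orange, filled at adjusted p < 0.05. On the left 4 pre-mRNA points are filled, Ccnd2, Cdkn1a and Tyms to the left of 0 and Cdk2 to the right, and on the right no point is filled.

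With late IL-10 no member passed against LPS alone in either measure. In mRNA limma called 0% of all genes in each direction, no member had an unadjusted p under 0.05, and limma-voom called 0 members. In pre-mRNA 0.979% of all genes rose and 0.0629% fell in limma, 2 members were higher and 2 lower at an unadjusted p under 0.05, and limma-voom called 0. Cdkn1a pre-mRNA stood at 7174 and 6398 with late IL-10, against 15527 and 19398 with LPS alone, and did not pass (-1.36 ± 0.42, adjusted p = 0.32). Ccnd3 pre-mRNA, at 251 and 272 with late IL-10, against 121 and 95.8 with LPS alone, did not pass either (1.27 ± 0.32, adjusted p = 0.18). The libraries of these 2 genes did not overlap between the groups.

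IL-10 throughout was also set against late IL-10. In mRNA no member passed (before adjustment 2 were higher and 4 lower at p under 0.05, and limma-voom called 0), where 0.517% of all genes rose and 0.569% fell in limma. In pre-mRNA, where 0.755% of all genes rose and 2.2% fell, 1 member fell and 0 rose. That was Ccnd2, at 164 and 60.4 with IL-10 throughout, against 3607 and 1478 with late IL-10 (-4.52 ± 0.87, adjusted p = 0.044). The call ended without either IL-10 throughout library, either late IL-10 library or either untreated library (adjusted p = 0.059 to 0.31).

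Both IL-10 groups were set against untreated cells, a comparison that shares the untreated libraries with LPS alone. With IL-10 throughout, 4 members rose and 6 fell in mRNA (10.3% and 15.4%), where 14.2% of all genes rose and 11.6% fell. In pre-mRNA 3 rose and 11 fell (7.69% and 28.2%), where 14.1% of all genes rose and 14.7% fell. With late IL-10, 6 rose and 5 fell in mRNA (15.4% and 12.8%), where 19.3% of all genes rose and 16.8% fell. In pre-mRNA 7 rose and 11 fell (17.9% and 28.2%), where 21.9% of all genes rose and 21.6% fell. With libraries scaled to total reads, the late IL-10 counts were 5 rose and 17 fell in mRNA and 4 and 16 in pre-mRNA. For IL-10 throughout, 5 mRNA calls were left without its library A, and in pre-mRNA 5 were left once its library A or untreated library A was out, 7 once untreated library B was left out and 9 once its own library B was. For late IL-10, 7 mRNA calls were left without its library A or untreated library A.

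Mki67, Ccnd2, Cdk6 and Cdkn1a were the 4 that rose in mRNA with IL-10 throughout. The changes against untreated cells were 3.99 ± 0.31 for Mki67, 5.97 ± 0.92 for Ccnd2, 2.98 ± 0.42 for Cdk6 and 3.06 ± 0.43 for Cdkn1a. These calls, and the fall of Gmnn (-3.58 ± 0.52), passed in all 8 fits without 1 library. E2f1 mRNA fell with IL-10 throughout (-1.73 ± 0.48, adjusted p = 0.04). E2f1 mRNA lost that call without IL-10 throughout library A or either untreated library (adjusted p = 0.13 to 0.2). E2f2 mRNA fell (-2.44 ± 0.43, adjusted p = 0.0078), which ended without IL-10 throughout library A or untreated library B (adjusted p = 0.053 to 0.056), and Cdt1 mRNA fell (-1.36 ± 0.35, adjusted p = 0.03). Cdt1 mRNA lost that call without IL-10 throughout library A or either untreated library (adjusted p = 0.079 to 0.16). With late IL-10 the changes in mRNA were 4.05 ± 0.31 for Mki67, 8.30 ± 0.92 for Ccnd2, 3.14 ± 0.42 for Cdk6, 5.17 ± 0.43 for Cdkn1a, -2.37 ± 0.43 for E2f2 and -4.14 ± 0.52 for Gmnn, all of which passed in all 8 fits. Pcna rose with late IL-10 (1.06 ± 0.26, adjusted p = 0.018) but not under scaling to total reads (0.30, adjusted p = 0.34), nor without late IL-10 library A or untreated library A (adjusted p = 0.074 to 0.11). E2f1, Cdk2 and Cdt1 fell with late IL-10 in mRNA, by 1.90 ± 0.48, 1.12 ± 0.30 and 1.61 ± 0.35. The E2f1 call ended without late IL-10 library A or either untreated library (adjusted p = 0.086 to 0.12), that on Cdk2 without late IL-10 library A or either untreated library (adjusted p = 0.062 to 0.16) and that on Cdt1 without late IL-10 library A or untreated library B (adjusted p = 0.074 to 0.075).

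In pre-mRNA, Mki67, Ccnd3, E2f2, Rb1 and Gmnn passed against untreated cells in all 8 fits without 1 library with IL-10 throughout, as they did with late IL-10. Ccnd3 pre-mRNA changed by -3.41 ± 0.32 with IL-10 throughout and by -2.60 ± 0.32 with late IL-10. Mcm6 pre-mRNA, with 39.1 and 14.02 normalized reads with IL-10 throughout, 155 and 49.4 after late IL-10, 165 and 40.5 with LPS alone, and 170.5 and 129.7 in untreated cells, fell with IL-10 throughout against untreated cells (-2.61 ± 0.82, adjusted p = 0.048), and ended without either IL-10 throughout library or either untreated library (adjusted p = 0.072 to 0.2) and with limma-voom (adjusted p = 0.059). Cdkn2c pre-mRNA, with 19.2 and 33.4 normalized reads with IL-10 throughout, 20.3 and 21.3 after late IL-10, 42.3 and 40.5 with LPS alone, and 81.5 and 80.1 in untreated cells, fell with IL-10 throughout (-1.63 ± 0.42, adjusted p = 0.024) and also with late IL-10 (-1.91 ± 0.42, adjusted p = 0.009). Cdt1 pre-mRNA fell with IL-10 throughout (-1.51 ± 0.46, adjusted p = 0.044) and also with late IL-10 (-1.43 ± 0.46, adjusted p = 0.038). The first Cdkn2c call ended without IL-10 throughout library A or either untreated library (adjusted p = 0.1 to 0.16) and the second without untreated library A (adjusted p = 0.051). The Cdt1 calls ended without either IL-10 throughout library, either late IL-10 library or either untreated library (adjusted p = 0.056 to 0.24) in the first comparison and without either late IL-10 library or either untreated library (adjusted p = 0.076 to 0.18) in the second. Myc pre-mRNA, with 40.6 and 74.4 normalized reads with IL-10 throughout, 150.1 and 369 after late IL-10, 70.5 and 119 with LPS alone, and 9.59 and 71.4 in untreated cells, rose with late IL-10 (3.09 ± 0.89, adjusted p = 0.025), a call that ended without late IL-10 library B or untreated library A (adjusted p = 0.11) and under scaling to total reads (adjusted p = 0.09).

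Other genes of the pathway were followed as 5 lists that hold no member. With LPS, 19.2% of all genes rose and 16.5% fell in mRNA, and 22.3% rose and 21.7% fell in pre-mRNA. The list counts with LPS below stand beside those shares, and no list was tested as a set. Of 42 other licensing and replication fork genes tested, 2 rose and 8 fell in mRNA with LPS (median change -0.38), and 4 rose and 17 fell in pre-mRNA (median -0.71). The share of this list that fell was close to that of all genes in mRNA and larger in pre-mRNA. Its share that rose was smaller in both measures. The smallest adjusted p belonged to Rfc2, a subunit of the clamp loader, in mRNA (-1.88 ± 0.26, adjusted p = 0.0021) and in pre-mRNA (-2.46 ± 0.27, adjusted p = 0.00042). Orc1, part of the origin recognition complex, fell in pre-mRNA (-1.47 ± 0.22, adjusted p = 0.0017), as did Gins4 of the helicase complex (-1.94 ± 0.33, adjusted p = 0.0028). Of 40 other mitotic genes, 4 rose and 2 fell in mRNA (median -0.20) and 4 rose and 5 fell in pre-mRNA (median -0.81). They included Pttg1, which encodes securin (2.40 ± 0.41, adjusted p = 0.0054 in mRNA), and Cenpa, the centromeric histone (-2.20 ± 0.40, adjusted p = 0.0065). In each measure and direction the share of this mitotic list was below that of all genes. These 40 genes shared the split between libraries, with 38 of 40 higher in library B with IL-10 throughout, 36 of 40 with late IL-10, and 37 of 40 higher in library A with LPS alone.

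Of 14 other E2F, pocket protein and DREAM genes, 2 rose and 1 fell with LPS in each measure. E2f8, an atypical E2F that represses, rose in mRNA (4.28 ± 0.56, adjusted p = 0.0018), while Tfdp2, a dimer partner of E2F, fell (-1.72 ± 0.28, adjusted p = 0.0047). E2f3, an activating E2F like E2f1 and E2f2, rose in mRNA (0.92 ± 0.26, adjusted p = 0.031) and in pre-mRNA (1.36 ± 0.33, adjusted p = 0.013), opposite in direction to both of those members. Of 34 other regulators of G1 and G0, 8 rose and 6 fell in mRNA (median 0.59), led by Gadd45b, a stress gene (5.16 ± 0.39, adjusted p = 0.00023), and 6 rose and 5 fell in pre-mRNA. Skp2, the ubiquitin ligase subunit that marks p27 for destruction, fell in mRNA (-2.61 ± 0.38, adjusted p = 0.0028). Of 10 other genes of the Myc network, 2 rose and 3 fell in mRNA and 4 rose and 3 fell in pre-mRNA, led by Mycl, a relative of Myc (9.23 ± 0.55, adjusted p = 0.00011 in mRNA). With IL-10 throughout against LPS alone, 1.19% of all genes rose and 1.05% fell in mRNA, and 2.44% rose and 4.26% fell in pre-mRNA. The 140 genes of the lists together had 2 calls in mRNA there. These were a rise of Cdkn2d, a CDK inhibitor (1.41 ± 0.21, adjusted p = 0.023), and a fall of Mad2l1, a spindle checkpoint gene (-1.64 ± 0.29, adjusted p = 0.041). In pre-mRNA 4 fell, E2f8 (-3.72 ± 0.40, adjusted p = 0.0048), Timeless of the replication fork (-2.69 ± 0.57, adjusted p = 0.036), Plk2 (-2.54 ± 0.40, adjusted p = 0.015) and Ccng2 (-2.0 ± 0.29, adjusted p = 0.012). With late IL-10 against LPS alone none of the genes on the 5 lists passed in either measure, where limma gave unadjusted p-values under 0.05 for 2 in mRNA and 11 in pre-mRNA and limma-voom called 0 and 1.

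By the annotation, 16 of the 39 members overlap a gene on the opposite strand and 5 (Rb1, Cdt1, Mcm7, Rrm1 and Top2a) overlap one on their own strand. Their values may hold reads of those neighbours, and how the authors assigned such reads is not given in the sources used here. Among the members in which both measures passed with LPS, Mki67 (chr7:135689784-135716361, minus strand) overlaps Gm45240, Ccnd2 (chr6:127125162-127152193, minus strand) overlaps Gm43126 and 9330179D12Rik, and Cdk6 (chr5:3341485-3531008, plus strand) overlaps Gm17590 and Gm42435, all on the opposite strand. Cdkn1a (chr17:29090976-29100727, plus strand) overlaps AC167363.2, Cdk2 (chr10:128697939-128705031, minus strand) overlaps Pmel and Cdk4 (chr10:127063534-127067920, plus strand) overlaps Tspan31, also on the opposite strand. Rrm1 (chr7:102441695-102469771, plus strand) overlaps Gm45399 on its own strand. Pcna (chr2:132249162-132253314, minus strand), E2f1 (chr2:154559407-154569892, minus strand), E2f2 (chr4:136172394-136196057, plus strand) and Gmnn (chr13:24751845-24761923, minus strand) overlap no annotated gene.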

How the data were processed

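RNA was sequenced from 8 samples, 2 in each of 4 groups, as directional libraries after ribosomal depletion. The authors deposited 1 table of 11415 genes, with a signal for mRNA and a value of the same kind for pre-mRNA in every group. Trim Galore, DESeq and build mm10 are named in the submitters' processing notes. Which aligner and counter were used, with what strand setting, and how pre-mRNA was defined is not stated in the labels. A deposited signal is the mean over 2 libraries of reads divided by a size factor. The reads of both libraries were recovered from it exactly (largest relative error 5.9e-15 and no second solution). Size factors recomputed by the median of ratios differed from those recovered with the reads by at most 1.9e-15 on the log2 scale.

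The values were fitted as log2(value + 1), which understates the change of low genes. Limma-trend (limma 3.58.1, R 4.3.3) took the 8 libraries of a measure together, with a term for the group and none for the pool. Genes with a mean of at least 1 were tested (11415 for mRNA, 11131 for pre-mRNA), with Benjamini-Hochberg adjustment within each of 6 comparisons and a threshold of 0.05. A count test was planned only for deposited columns that hold counts, and none does. That test was not run on the recovered reads either, which entered limma-voom as an alternative. The fit was tested on simulated data. Alternatives were scaling by TMM and to total reads, limma-voom on the recovered reads, a pseudocount of 0.5, a filter at a mean of 20 and no filter, a fit of only the 2 groups compared, and leaving out each library.

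The members, the lists, the motifs and the markers were chosen with earlier results of these data known. All 39 members are accounted for. For members past the threshold in a comparison, the text gives every library in the measure that passed, and not always in the other measure. For Cdkn1a, Myc, Ccnd1, Ccnd2, Ccnd3, E2f1, Mki67 and Top2a it gives every library whatever their result. It names at most 3 genes of each other list per comparison.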

Additional observations from a re-analysis of the deposited data

How the results depend on the processing

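For each of the 89 calls on single members (1 member, comparison and measure), 7 alternatives were fitted besides leaving out single libraries, and no call reversed in any of them. Scaling by TMM and dropping the filter kept all 89 calls past the threshold; the filter at a mean of 20 kept all 86 it still tested. Limma-voom lost 3, a pseudocount of 0.5 lost 2, a fit of the 2 groups alone lost 8 and scaling to total reads lost 11. Over the fits that left out 1 library, 555 kept the call and 157 lost it; the causes were not tested, beyond the loss of 1 sample. Scaling to total reads changed counts of members called: LPS against untreated mRNA had 21 calls in place of 12, and late IL-10 against untreated mRNA had 22 in place of 11. Under that scaling IL-10 throughout against LPS had 1 in place of 0 in mRNA and 2 in place of 4 in pre-mRNA, and IL-10 throughout against late IL-10 mRNA had 1 in place of 0. Leaving out 1 library gave counts of 6 to 12 for LPS against untreated mRNA and 11 to 19 for its pre-mRNA, and 5 to 11 and 5 to 14 for IL-10 throughout against untreated. It gave 7 to 13 and 12 to 19 for late IL-10 against untreated, 0 to 6 for IL-10 throughout against LPS pre-mRNA, 0 to 2 for IL-10 throughout against late IL-10 pre-mRNA, and 1 to 3 for members whose pre-mRNA change passed the test against their mRNA change. No paired analysis was possible because the deposited columns carry no replicate numbers. With 2 libraries a group, small changes could not be seen. Single-digit reads lay behind values of Cdc6, Mcm2 pre-mRNA, untreated Ccnd2 pre-mRNA, Aurkb pre-mRNA with LPS alone and Gmnn pre-mRNA after late IL-10, among others.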
